A study of Mus musculus with 19 samples.

Results

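The simple epithelial keratins considered here are *Krt7*, *Krt8*, *Krt18*, *Krt19* and *Krt80*, 5 of the 53558 genes in the deposited estimates. They were taken by gene symbol and not by a rule on measured values, but with earlier results of these data known. All 5 were among the 13986 genes that passed a filter on low counts. Their transcripts were measured by bulk RNA-seq in neoplastic cells sorted from mouse lung tumors 17 weeks after infection. Every mouse, controls included, carried R26LSL-tdTomato and H11LSL-Cas9 beside a Cre-activated tumor allele, so that Cre from the virus started tumors and switched on the red reporter and Cas9 in the same cells. The sgInert group (n = 7 libraries) received a vector with the inert guides sgNeo1, sgNT and sgNeo2, the sgCebpa/b/d group (n = 7) a vector against *Cebpa*, *Cebpb* and *Cebpd*, and the sgLkb1 group (n = 5) a vector against *Lkb1*, whose mouse gene symbol is *Stk11*. Mice were of a mixed background and were 6 to 12 weeks old at infection according to the methods of the study. The virus enters any airway or alveolar cell it reaches, and sorting took cells negative for CD45, CD31, F4/80 and Ter119, which are marks of blood and endothelial cells. Neoplastic cells elsewhere in the study were also gated for tdTomato, which would remove fibroblasts and mesothelial cells that Cre did not reach, but the labels of these libraries do not state that gate.

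Some libraries shared a mouse, so n counts libraries and not animals. Titles with an animal number starting with MT occurred in 3 sgInert, 4 sgCebpa/b/d and 3 sgLkb1 libraries, from 2 animal numbers in each group. The other 4 sgInert libraries carried numbers starting with ZR, and 3 sgCebpa/b/d and 2 sgLkb1 libraries carried no animal number. What these prefixes stand for was not given in the sources used here, and since all ZR libraries are sgInert, the prefix and the group cannot be told apart except among the MT-numbered libraries. All sgLkb1 libraries, 4 sgCebpa/b/d libraries and 3 sgInert libraries came from females. Rounded counts summed to between 2760743 and 9944156 per library. *Stk11* was lower in each of the 5 sgLkb1 libraries than in every sgInert library, with a log2 fold change of −1.24 (SE 0.17, edgeR adjusted p = 1.07e-04). The transcripts of the C/ebp genes were not lower over the whole group in which they were targeted. *Cebpa* was above all sgInert libraries in each of the 7 sgCebpa/b/d libraries (0.73, SE 0.14, edgeR adjusted p = 0.00148), and *Cebpb* (1.16, edgeR adjusted p = 0.0524) and *Cebpd* (0.20, edgeR adjusted p = 0.742) did not pass. The libraries of this group fell into separate sets for *Cebpb*, at 4.19 to 5.21 TPM in the 4 MT-numbered and 14.6 to 19.3 TPM in the 3 unnumbered libraries, and for *Cebpd*, at 21.0 to 30.7 TPM and 45.7 to 57.5 TPM. The MT-numbered sgInert libraries had 3.77 to 6.23 TPM of *Cebpb* and 38.1 to 49.1 TPM of *Cebpd*. Among MT-numbered libraries the *Cebpd* levels with C/ebp targeting thus lay below those of sgInert, which is read from these ranges without a test. A Cas9 cut changes the sequence of a gene and need not lower its transcript, so these levels check neither the cuts nor the labels of that group. ATII markers, which include the surfactant genes, summed to at least 34954 TPM (transcript levels corrected for length and scaled to a common total) in every library. The basal cell markers *Krt5* and *Krt14* were at 0 in all 19. Of the other basal cell markers, *Krt15* had counts in 16 libraries, at most 3.46 TPM. *Trp63*, *Krt17* and *Ngfr* reached at most 1.5, 0.48 and 0.14 TPM.

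Keratins are the intermediate filament proteins of epithelia, and each filament is built from pairs of an acidic type I chain and a basic type II chain. *Krt8* (type II) and *Krt18* (type I) encode the founding pair of single-layered epithelia, *Krt7* (type II) and *Krt19* (type I) join them in ducts and lung lining, and *Krt80* encodes a type II chain found near cell junctions. In the lung, high *Krt8*, *Krt7* and *Krt19* mark the state that alveolar type II (ATII) cells pass through on the way to alveolar type I (ATI) cells after injury, and the filaments are anchored to neighbouring cells at desmosomes.

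In the GRCm38 assembly, 4 of the 5 genes lie within 684584 bases of the keratin cluster on chromosome 15. *Krt80* (101347444 to 101370162, minus strand) and *Krt7* (101411043 to 101430313, plus strand) are separated by 40880 bases, and *Krt8* (101996698 to 102004482, minus strand) and *Krt18* (102028180 to 102032027, plus strand) by 23697 bases. *Krt19* lies in the type I cluster on chromosome 11 (100140810 to 100148665, minus strand). *Krt18* is thus the only type I chain of the 5 that sits among type II genes.

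Promoter sequences of 300 bases, from 250 before to 50 after the start of transcription, are shown for *Krt7*, *Krt8* and *Krt18*. These are the 3 members for which a promoter sequence was found. They are RefSeq sequences of GRCm38.p6, whose starts lie inside the gene spans given above, spans that cover all transcripts of the GENCODE annotation. They are read 5′ to 3′ along the gene: chr15:101412153-101412452 on the plus strand for *Krt7*, chr15:102004293-102004592 on the minus strand for *Krt8* and chr15:102027966-102028265 on the plus strand for *Krt18*. Capitals mark every match to a searched motif.
Krt7: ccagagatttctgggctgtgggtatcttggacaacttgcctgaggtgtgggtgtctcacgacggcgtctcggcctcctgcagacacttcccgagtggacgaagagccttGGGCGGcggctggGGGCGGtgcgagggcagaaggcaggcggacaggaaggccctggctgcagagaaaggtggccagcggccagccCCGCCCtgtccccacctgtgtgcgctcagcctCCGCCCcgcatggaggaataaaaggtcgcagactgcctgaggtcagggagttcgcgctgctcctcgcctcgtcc
Krt8: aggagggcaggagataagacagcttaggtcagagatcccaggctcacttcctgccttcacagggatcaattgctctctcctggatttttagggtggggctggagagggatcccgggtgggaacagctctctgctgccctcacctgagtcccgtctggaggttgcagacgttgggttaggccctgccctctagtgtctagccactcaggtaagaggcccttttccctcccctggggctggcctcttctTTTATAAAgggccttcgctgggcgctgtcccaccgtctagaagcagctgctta
Krt18: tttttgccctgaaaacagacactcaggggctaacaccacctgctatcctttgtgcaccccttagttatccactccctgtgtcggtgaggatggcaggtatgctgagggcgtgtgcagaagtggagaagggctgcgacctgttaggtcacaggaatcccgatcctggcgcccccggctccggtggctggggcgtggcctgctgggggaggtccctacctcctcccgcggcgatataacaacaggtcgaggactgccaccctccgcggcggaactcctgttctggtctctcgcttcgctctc

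Both strands were searched for 6 short motifs. SP/KLF letters (GGGCGG) occurred 4 times in the *Krt7* window, at bases 110 and 123 on the strand shown and at bases 195 and 227 on the other, and 35.7% of the 32851 promoters of the same length held them. TATA box letters (TATAAA) were found in the *Krt8* window on both strands, at bases 250 and 248, or −1 and −3 from the start of transcription used. They are overlapping matches within 1 stretch that reads the same on either strand, and 13.6% of promoters held these letters. C/EBP letters (TTGCNNAA) were in none of the 3 windows and in 10.8% of all promoters. The same was true of AP-1 letters (TGANTCA), which 7.81% of promoters held. Neither the CREB letters, TGACGTCA, of 1.79% of promoters nor the NKX2-1 letters of 11.5% (spelled CACTTNA) were found in the 3. The *Krt18* window held none of the 6. These are matches of letters and not measured binding.

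With guides against the C/ebp genes, *Krt7* and *Krt18* rose and *Krt80* fell, while *Krt8* and *Krt19* did not pass the test. With guides against *Lkb1*, *Krt18* and *Krt7* rose, and *Krt8*, *Krt19* and *Krt80* did not pass. Calls rest on edgeR's quasi-likelihood test with Benjamini-Hochberg adjustment over all 13986 genes, at an adjusted p below 0.05. In sgCebpa/b/d against sgInert, 3 of 5 keratins were called against 10.1% of all genes tested (4.73% higher and 5.36% lower), and in sgLkb1 against sgInert 2 of 5 were called against 5.78% (2.81% higher and 2.97% lower). The split of the latter depends on the scaling, with 393 genes higher and 416 lower on TMM-scaled counts but 783 and 148 with limma on log2(TPM + 1). The median log2 fold change of the 5 was 0.39 and 0.52, where that of all genes tested was 0.02 and −0.01. No member passed the stricter rule of an absolute log2 fold change above 1, which 4.65% and 3.01% of all genes passed. Both comparisons share the 7 sgInert libraries, and in bulk RNA fewer cells of a type and less RNA per cell cannot be told apart.

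**Figure D1:**
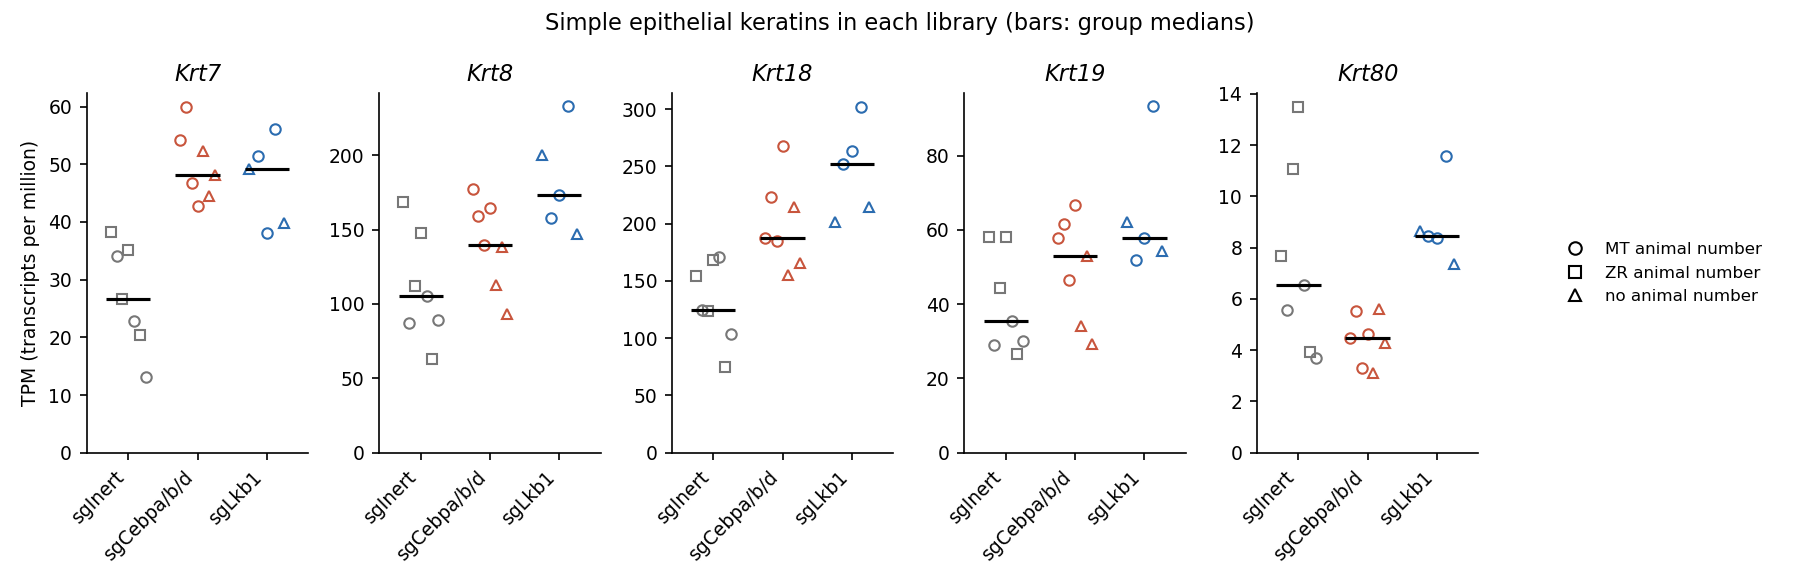
Level of each keratin in each library in TPM (linear axes from 0), by group, with the group median as a bar and the kind of animal number in the title as the symbol. The 7 sgCebpa/b/d libraries lie above all 7 sgInert libraries for *Krt7*, whereas for *Krt80* they lie low and below all 5 sgLkb1 libraries.

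*Krt18*, the type I partner of *Krt8*, was the most abundant of the 5 by median TPM in each group. Its level in sgInert ranged from 75.2 to 171 TPM with a median of 125, and in sgCebpa/b/d from 155 to 267.5 TPM with a median of 188. In the 5 sgLkb1 libraries *Krt18* stood at 202, 252, 264, 302 and 214 TPM. On the log2 CPM scale (log2 of counts scaled to the library total, prior count 2), 6 of 7 sgCebpa/b/d and 5 of 5 sgLkb1 libraries were above every sgInert library, and across all genes tested 2.15% had sgLkb1 libraries all above sgInert. In sgCebpa/b/d *Krt18* rose by 0.59 on the log2 scale (SE 0.14, edgeR adjusted p = 0.00701) and in sgLkb1 by 0.70 (SE 0.15, edgeR adjusted p = 0.00592), or 1.51-fold and 1.63-fold. Among female libraries alone, *Krt18* missed the threshold in both contexts, at 0.41 (edgeR adjusted p = 0.136) and 0.49 (edgeR adjusted p = 0.0501).

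*Krt19*, the second type I chain, ranged from 26.5 to 58.1 TPM in sgInert (median 35.5) and from 29.15 to 66.7 TPM in sgCebpa/b/d (median 53.0). The sgLkb1 libraries had 62.0, 51.95, 57.9, 93.4 and 54.2 TPM, where the fourth stood above the rest. The groups overlapped, with 2 of 7 sgCebpa/b/d and 1 of 5 sgLkb1 libraries above every sgInert library in log2 CPM. In sgCebpa/b/d the log2 fold change of *Krt19* was 0.39 (95% interval 0.03 to 0.76, edgeR adjusted p = 0.177) and in sgLkb1 it was 0.51 (0.11 to 0.91, edgeR adjusted p = 0.129).

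*Krt8*, the type II partner of *Krt18*, ranged from 63.1 to 168.5 TPM in sgInert (median 105) and from 93.4 to 178 TPM in sgCebpa/b/d (median 139.9). The sgLkb1 libraries stood at 200.5, 158, 173, 233 and 147 TPM. Their lowest values lay within the sgInert range, and so did all but 1 of the sgCebpa/b/d libraries in log2 CPM. Against sgInert, *Krt8* in sgCebpa/b/d had a log2 fold change of 0.33 (95% interval 0.02 to 0.65, edgeR adjusted p = 0.187) and in sgLkb1 of 0.52 (0.17 to 0.86, edgeR adjusted p = 0.0718). The copy *Krt8-ps* was assigned at most 1.25% of the counts of *Krt8* in any library. Shared reads had by then been split between the genes by RSEM, so this share does not bound the shared reads given to *Krt8*.

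*Krt7*, the type II chain of ductal and lung epithelium, showed the largest difference of the 5 in sgCebpa/b/d. Its level was 13.2 to 38.3 TPM in sgInert (median 26.6) and 42.7 to 59.9 TPM in sgCebpa/b/d (median 48.2). The groups did not overlap, which was true in this direction of 1.28% of all genes tested. The log2 fold change was 0.91 (SE 0.15, edgeR adjusted p = 2.42e-04), or 1.88-fold. *Krt7* passed in all 14 alternative analyses and in all 19 that left out 1 library.

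In sgLkb1, *Krt7* stood at 49.2, 51.4, 38.1, 56.1 and 39.9 TPM. In log2 CPM, 4 of these 5 libraries were above every sgInert library. The log2 fold change was 0.61 (SE 0.16, edgeR adjusted p = 0.0243), or 1.53-fold, and this call depended on the setting. The call was lost without sgLkb1 replicate 2 or 4 (highest edgeR adjusted p = 0.0625). It was kept in 10 of 14 alternatives (highest edgeR adjusted p = 0.129), and lost among others when libraries of 1 animal number were summed (edgeR adjusted p = 0.0693).

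*Krt80*, the junctional type II chain, was the least abundant of the 5 and the only one to fall. It ranged from 3.71 to 13.5 TPM in sgInert (median 6.53) and from 3.11 to 5.60 TPM in sgCebpa/b/d (median 4.48), with 8.64, 8.45, 8.37, 11.6 and 7.37 TPM in sgLkb1. These levels rest on 26 to 202 counts per library, fewer than for the other members. Its log2 fold change in sgCebpa/b/d was −0.77 (SE 0.24, edgeR adjusted p = 0.0420), whereas in sgLkb1 it was 0.02 (95% interval −0.51 to 0.55, edgeR adjusted p = 0.985).

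The fall of *Krt80* was not stable. It was kept in 4 of 14 alternatives and in 7 of the 19 fits that left out 1 library, and among MT-numbered libraries it was −0.33 (edgeR adjusted p = 0.529). In sgInert the ZR-numbered libraries had 3.92 to 13.5 TPM and the MT-numbered libraries 3.71 to 6.53 TPM.

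Among the MT-numbered libraries, 4 of the 5 keratins were called higher in each perturbed group against sgInert. In sgCebpa/b/d, then sgLkb1, *Krt8* differed by 0.65 (SE 0.12, edgeR adjusted p = 0.00282) and 0.75 (SE 0.12, edgeR adjusted p = 0.00159), and *Krt19* by 0.82 (SE 0.17, edgeR adjusted p = 0.00870) and 0.84 (SE 0.18, edgeR adjusted p = 0.0110). *Krt7* differed by 1.25 and 0.96, and *Krt18* by 0.58 and 0.79. The background among these 10 libraries was 8.55% of genes called in sgCebpa/b/d (4.3% higher) and 6.97% in sgLkb1 (3.61% higher).

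In TPM these 4 keratins did not overlap between MT-numbered sgInert libraries and either perturbed group, which was true in this direction of 12.5% of all genes tested in sgCebpa/b/d and of 21.3% in sgLkb1. *Krt8* had 87.4 to 105 TPM in the 3 MT-numbered sgInert libraries, 139.9 to 178 TPM in the 4 of sgCebpa/b/d and 158 to 233 TPM in the 3 of sgLkb1. *Krt19* had 29.1 to 35.5 TPM, 46.4 to 66.7 TPM and 51.95 to 93.4 TPM in the same order. In the ZR-numbered sgInert libraries *Krt8* spanned 63.1 to 168.5 TPM and *Krt19* 26.5 to 58.1 TPM, which took in both the lowest and the highest sgInert values of each. The 3 unnumbered sgCebpa/b/d libraries, left out here, had 93.4 to 138 TPM of *Krt8* and 29.15 to 53.0 TPM of *Krt19*. The MT-numbered libraries come from 2 animal numbers a group, and their p-values measure the spread between libraries.

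**Figure D2:**
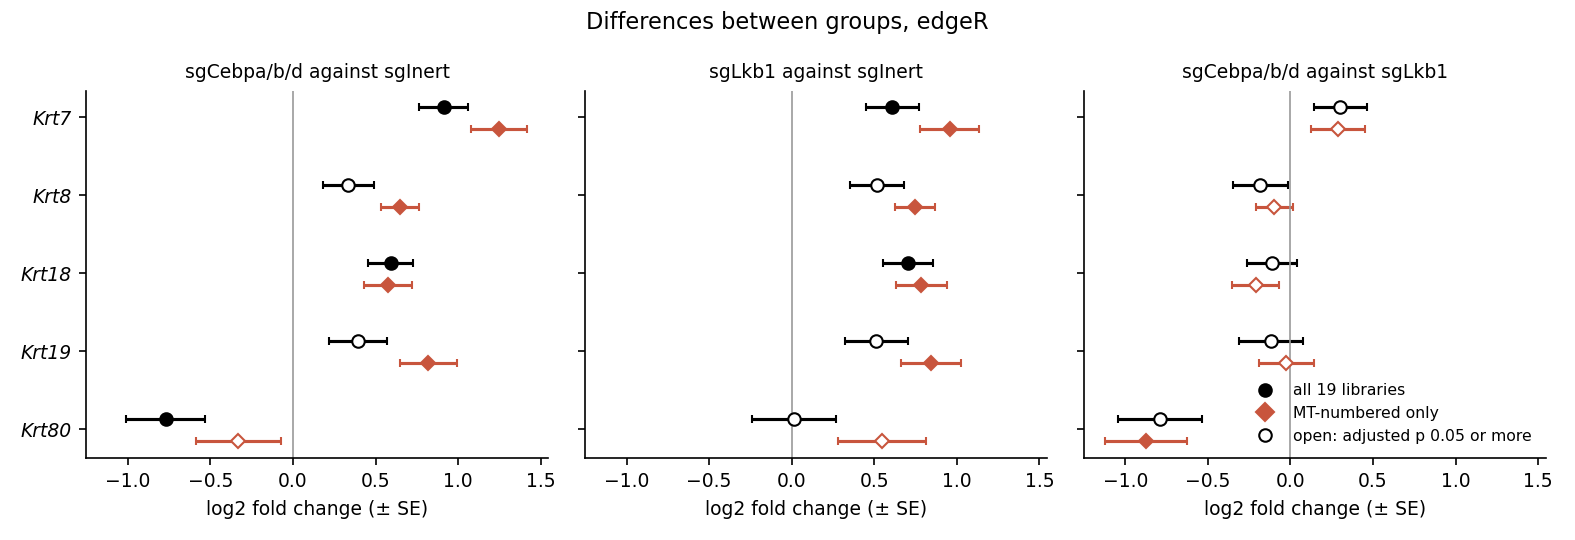
Log2 fold change of each keratin with its standard error (SE) in the 3 comparisons, for all 19 libraries (black circles) and for the 10 MT-numbered libraries (red diamonds), filled where the edgeR adjusted p was under 0.05. *Krt7* and *Krt18* are filled in both sets against sgInert, *Krt8* and *Krt19* only among MT-numbered libraries, and *Krt80* only in all libraries of sgCebpa/b/d. In the direct comparison of the perturbed groups only *Krt80* among MT-numbered libraries is filled.

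Set directly against each other, sgCebpa/b/d and sgLkb1 gave no call among the 5 keratins, where 5.96% of all genes tested were called (396 higher and 437 lower, but 162 and 805 with limma on log2(TPM + 1)). *Krt80* was the furthest apart, at −0.79 (95% interval −1.32 to −0.26, edgeR adjusted p = 0.0761), and all 7 sgCebpa/b/d libraries lay below all 5 sgLkb1 libraries, as did 2.87% of genes tested. It passed in 5 of 14 alternatives, MT-numbered libraries among them (−0.88, edgeR adjusted p = 0.0496, background 6.98%). *Krt7* differed by 0.30 (−0.03 to 0.64, edgeR adjusted p = 0.328), *Krt8* by −0.18 (−0.53 to 0.16, edgeR adjusted p = 0.618), *Krt18* by −0.11 (−0.43 to 0.20, edgeR adjusted p = 0.757) and *Krt19* by −0.12 (−0.51 to 0.28, edgeR adjusted p = 0.808). These intervals reach at most 0.64 in size, so that a difference of up to 1.55-fold between the perturbed groups could be present in these 4.

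By median TPM the order of the groups was sgInert, then sgCebpa/b/d, then sgLkb1 for *Krt7*, *Krt8*, *Krt18* and *Krt19*, and the last 2 neighbours did not differ past the threshold. For *Krt80* the order was sgCebpa/b/d, sgInert, sgLkb1. TPM values set sgLkb1 somewhat high relative to TMM-scaled counts. On log2(TPM + 1) the median difference of all genes between sgLkb1 and sgInert was 0.18, against −0.01 on scaled counts, and between sgCebpa/b/d and sgLkb1 it was −0.15.

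The sum of the 5 keratins had a median of 318 TPM in the sgInert group, 456 TPM with C/ebp targeting and 522 TPM with *Lkb1* targeting. Type II chains (*Krt7*, *Krt8* and *Krt80*) amounted to 0.652 to 1.01 of the type I chains (*Krt18* and *Krt19*) in control libraries, to 0.635 to 0.963 of them with C/ebp targeting and to 0.683 to 0.979 of them with *Lkb1* targeting. The ranges overlap almost fully, with medians of 0.861, 0.790 and 0.724. Type I transcripts thus exceeded type II transcripts in 18 of 19 libraries.

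The makeup within each type was described in the same way. *Krt7* made up a median of 17.9% of type II TPM in control libraries, 24.6% with C/ebp targeting and 19.05% with *Lkb1* targeting. In the same order *Krt80* made up 4.48%, 2.18% and 3.81%, and its sgCebpa/b/d libraries, at 1.74% to 2.98%, were all below those of sgInert and sgLkb1. This share is also lowered by a rise of *Krt7*, which is part of the type II sum. In TPM itself *Krt80* overlapped between sgCebpa/b/d (3.11 to 5.60) and sgInert (3.71 to 13.5). *Krt19* was a median of 25.6%, 19.96% and 20.2% of type I TPM. In sgInert this share was 25.6% to 27.3% in the ZR-numbered libraries but 17.2% to 22.5% in the MT-numbered ones. The MT-numbered libraries of sgCebpa/b/d had 19.96% to 23.5% and those of sgLkb1 17.1% to 23.6%, so the MT-numbered groups overlapped.

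**Figure D3:**
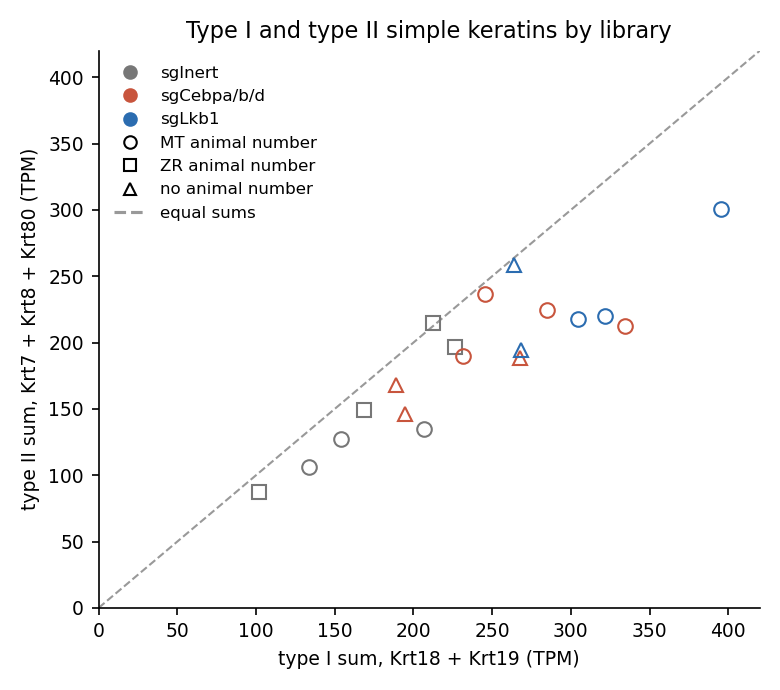
Summed TPM of the type I chains (horizontal) and type II chains (vertical) in each library, with equal sums as a dashed line, colours for the groups and symbols for the kind of animal number. Nearly all libraries lie below the line, and the perturbed groups extend to higher sums along the same direction, up to 396 TPM of type I in sgLkb1.

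Across the 19 libraries, *Krt8* and *Krt19* rose and fell together most closely, with a Pearson correlation of log2 CPM of 0.94, and of 0.91 once group means were removed. *Krt8* and *Krt18* correlated at 0.79 (0.63 without group means) and *Krt7* and *Krt8* at 0.69 (0.59). *Krt80* correlated with *Krt7* at −0.09 across all libraries but at 0.69 within groups. All points share libraries and depth, so these values are descriptions.

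The genes most like each member over the 19 libraries were taken from the 11083 genes with an average log2 CPM above 2. For *Krt7* they were *Ano1* (0.95), a chloride channel, *Slc39a10* (0.94), a zinc importer, and *Msn* (0.92), which links actin to the membrane. *Krt8* and *Krt19* shared *Ctnnd1*, which encodes p120 catenin (0.91 and 0.87), and *Ptgs1*, a prostaglandin synthase (0.88 and 0.87), with *Zfp655* (0.84) the third for *Krt8* and the tetraspanin *Cd9* (0.88) the first for *Krt19*. *Krt18* was closest to *Sh3bp4* (0.90), *Icam1* (0.88) and *Zfp703* (0.87), and *Krt80* to *Procr*, the protein C receptor (0.88), *Suco* (0.87) and *Ids* (0.84). The lowest correlations were with *Rps29* (−0.92) for *Krt7*, *Tpt1* (−0.83) for *Krt8*, *Gm43609* (−0.86) for *Krt18*, *Zfp398* (−0.82) for *Krt19* and *Zfp322a* (−0.83) for *Krt80*.

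Few other keratins were expressed. Of 55 keratin genes in the files, 29 had no count in any library, 18 had counts but were too low to test (at most 4.28 TPM, for *Krt8-ps*) and 8 were tested, which were the 5 members, *Krt10*, *Krt23* and *Krt87*. *Krt23*, a type I keratin 647672 bases from *Krt19* on chromosome 11, moved opposite to *Krt7* and *Krt18*. Its level was 43.8 to 104 TPM in sgInert (median 85.8), 27.4 to 64.8 TPM in sgCebpa/b/d (median 48.9) and 30.1 to 58.6 TPM in sgLkb1. *Krt23* fell by 0.90 on the log2 scale in sgCebpa/b/d (SE 0.19, edgeR adjusted p = 0.00341) and by 1.14 in sgLkb1 (SE 0.22, edgeR adjusted p = 0.00218). *Krt10* and *Krt87* did not pass the test in any comparison (edgeR adjusted p from 0.202 to 0.813).

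Desmosomes anchor keratin filaments at cell contacts, and of 11 desmosome genes tested 3 rose and 2 fell in sgCebpa/b/d, while none rose and 2 fell in sgLkb1 (medians 0.07 and 0.11). For this list and those below, the share of all genes tested that was called was 10.1% in sgCebpa/b/d and 5.78% in sgLkb1. Between the perturbed groups it was 5.96%. *Dsg2*, a desmosomal cadherin, rose from 0.85 to 4.61 TPM in sgInert to 3.80 to 12.97 TPM in sgCebpa/b/d (2.30, SE 0.39, edgeR adjusted p = 4.32e-04). *Dsc2*, its partner cadherin, had at most 1.41 TPM in sgInert and 1.24 to 3.15 TPM in sgCebpa/b/d (edgeR adjusted p = 0.0235), and *Jup*, which encodes plakoglobin, rose by 0.37 (edgeR adjusted p = 0.0248). *Ppl*, which encodes the filament linker periplakin, fell by 0.62 (edgeR adjusted p = 0.00243) and by 0.54 in sgLkb1 (edgeR adjusted p = 0.0246, kept in 4 of 14 alternatives). *Pof1b*, which encodes an actin-binding protein of cell junctions, fell by 0.59 (edgeR adjusted p = 0.0420) and by 1.45 in sgLkb1 (edgeR adjusted p = 1.64e-04). In sgCebpa/b/d the call of *Pof1b* was kept in 9 of 14 alternatives and in 12 of 19 fits without 1 library, and those of *Dsc2* and *Jup* in 11 and 10 of 14 alternatives.

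Between the perturbed groups, *Dsg2* (1.57, edgeR adjusted p = 0.0267) and *Pof1b* (0.87, edgeR adjusted p = 0.0119) were higher in sgCebpa/b/d. None of the 7 hemidesmosome and cytolinker genes tested was called in any of the 3 comparisons, and the lowest edgeR adjusted p was 0.136, for the integrin *Itga6* in sgCebpa/b/d. Of 6 keratin partner genes, *Ywhaz*, a 14-3-3 protein, rose by 0.29 in sgCebpa/b/d (edgeR adjusted p = 0.0208) and no other was called.

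The other intermediate filament genes included the strongest changes in filament transcripts. *Vim*, the vimentin of mesenchymal cells, had 3.99 to 22.7 TPM in sgInert, 9.28 to 77.3 TPM in sgCebpa/b/d and 24.8 to 68.7 TPM in sgLkb1. It rose by 2.13 (edgeR adjusted p = 0.0106) and 2.00 (edgeR adjusted p = 0.0339) on the log2 scale. The first call of *Vim* was kept in 11 of 14 alternatives and the value fell to 0.42 (edgeR adjusted p = 0.611) without the libraries that carry no animal number, and the second was kept in 11 of the 19 fits that left out 1 library (1.68 at the lowest, edgeR adjusted p = 0.121, without sgLkb1 replicate 5). *Lmna*, which encodes lamins of the nuclear envelope, rose by 0.93 (edgeR adjusted p = 0.00135) and 0.99 (edgeR adjusted p = 0.00279), and these calls of *Lmna* were kept in 11 and 12 of 14 alternatives. *Nes*, nestin, rose by 1.84 in sgCebpa/b/d (edgeR adjusted p = 0.00440) and did not pass in sgLkb1 (edgeR adjusted p = 0.0947). The call of *Nes* was kept in 10 of 14 alternatives, and among MT-numbered libraries the value was 0.79 (edgeR adjusted p = 0.304). In all, sgCebpa/b/d had 3 of 6 tested genes that rose and sgLkb1 had 2 of 6, and none fell.

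**Figure D4:**
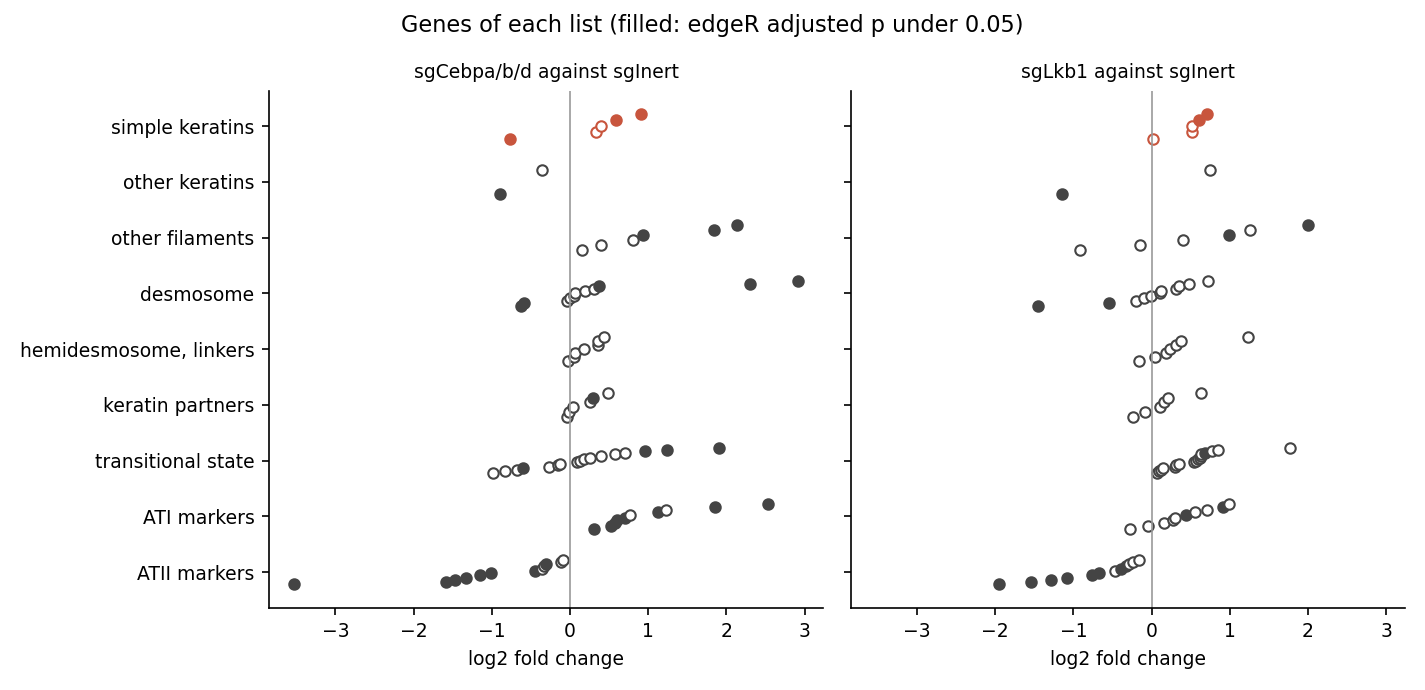
Log2 fold change of every tested gene of each list, 1 point a gene, in sgCebpa/b/d (left) and sgLkb1 (right) against sgInert, filled where the edgeR adjusted p was under 0.05 and red for the 5 keratins. ATI markers lie to the right in sgCebpa/b/d, where 8 of 10 rose, and the 12 ATII markers lie to the left of 0 in both panels.

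Keratins are read in the lung beside markers of alveolar state. Of 17 transitional state genes, with keratins left out, 3 rose and 1 fell in sgCebpa/b/d (median 0.12), and 1 rose in sgLkb1, where all 17 were above 0 (median 0.57). Of all genes tested, 10.1% and 5.78% were called in these comparisons, and the 1 call in sgLkb1 is near that share. *Cdkn1a*, which encodes the cell cycle inhibitor p21, fell by 0.61 in sgCebpa/b/d (edgeR adjusted p = 0.00340) and rose by 0.69 in sgLkb1 (edgeR adjusted p = 0.00395). The direct comparison gave −1.30 (edgeR adjusted p = 4.61e-06). *Itgb6*, an epithelial integrin, rose by 0.96 in sgCebpa/b/d (edgeR adjusted p = 7.78e-04), *Ctgf* by 1.24 (edgeR adjusted p = 0.00962) and *Tm4sf1* by 1.91 (edgeR adjusted p = 0.0290), although *Tm4sf1* was at −0.36 among MT-numbered libraries.

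Of 10 ATI markers tested, 8 rose in sgCebpa/b/d (median 0.74) and 2 in sgLkb1 (median 0.37). *Pdpn*, podoplanin, had 3.80 to 22.1 TPM in sgInert and 57.3 to 96.3 TPM in sgCebpa/b/d (2.52, edgeR adjusted p = 1.47e-04), and *Hopx* rose by 1.86 (edgeR adjusted p = 1.22e-04). In sgLkb1, *Emp2* rose by 0.44 (edgeR adjusted p = 0.00767) and *Akap5* by 0.92 (edgeR adjusted p = 0.0393), the latter kept in 9 of 14 alternatives and in 12 of 19 fits without 1 library. Of 12 ATII markers, 8 fell in each context (medians −0.74 and −0.57), among them the lysozyme *Lyz2* at −3.52 in sgCebpa/b/d and −1.94 in sgLkb1, and the complement component *Hc*, which had the smallest p in sgLkb1, at −1.55.

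Of 9 progression markers tested, *Runx2* (1.85, edgeR adjusted p = 0.00118) and *Tm4sf1* rose in sgCebpa/b/d, where 6 of the 9 were below 0 (median −0.26). In sgLkb1 none was called, and 8 of the 9 were above 0 (median 0.68). Between the perturbed groups, 2 of the 9 were called lower in sgCebpa/b/d (median −0.74). None of the 6 epithelial identity genes, *Epcam* and *Cdh1* among them, was called in any comparison.

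Some markers of cells that could accompany the sorted epithelium moved with the groups, and some of these cells make the same keratins. Mesothelial cells express *Krt8*, *Krt18*, *Krt19* and *Krt7*. The other 6 mesothelial markers summed to 0 to 2.21 TPM in sgInert, 0.3 to 3.61 TPM in sgCebpa/b/d and 5.02 to 15.3 TPM in sgLkb1, where *Msln*, mesothelin, rose by 3.17 (edgeR adjusted p = 0.00493). The sgLkb1 sum rested mainly on *Msln*, at 4.89 to 12.7 TPM, while *Upk3b* had at most 0.12 TPM there. *Calb2* was at 0 in all libraries, and *Wt1* and *Lrrn4* were at 0 in sgInert. *Wt1*, *Lrrn4* and *Rspo1* were at 0 in 4, 3 and 4 of the 5 sgLkb1 libraries.

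The 8 fibroblast markers summed to 4.99 to 55.3 TPM in sgInert, 31.6 to 145 TPM in sgCebpa/b/d and 48.4 to 144 TPM in sgLkb1. Of these 8, 2 were called higher in each perturbed group, *Dcn* among them, by 2.88 and 2.84 (edgeR adjusted p = 0.00129 and 0.00412). The 6 endothelial markers summed to 7.48 to 18.8 TPM, 10.05 to 107 TPM and 25.9 to 91.8 TPM. Of these 6, 4 were called higher in sgCebpa/b/d and 1 in sgLkb1, where 4.73% and 2.81% of all genes tested were called higher. Among MT-numbered libraries the fibroblast sums were 4.99 to 10.9 TPM, 31.6 to 145 TPM and 48.4 to 128 TPM, so sgInert lay below both perturbed groups there. Of single genes tested, 12.5% in sgCebpa/b/d and 21.3% in sgLkb1 lay above sgInert in the same way among these libraries. The endothelial sums there were 11.7 to 18.8 TPM, 10.05 to 24.6 TPM and 25.9 to 56.2 TPM. They thus overlapped between sgInert and sgCebpa/b/d and were higher in sgLkb1 than in sgInert. The 8 immune markers overlapped between groups (5.68 to 25.2, 5.44 to 48.4 and 6.54 to 41.9 TPM), and none was called. The 8 airway club and ciliated markers summed to 35.1 to 933 TPM in sgInert, 33.9 to 329 TPM in sgCebpa/b/d and 44.1 to 650.3 TPM in sgLkb1. Of the 5 airway markers tested, 1 was called lower in sgLkb1 against sgInert and none was called in sgCebpa/b/d against sgInert. Between the perturbed groups 1 was called higher in sgCebpa/b/d. A gate for tdTomato would remove such cells unless Cre had reached them. The part of these cells in the keratin and filament differences was not tested.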

How the data were processed

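Neoplastic cells of 19 libraries in 3 virus groups were profiled by RNA-seq from total RNA of sorted pellets. The authors aligned the reads to mm10 with STAR 2.6.1d and made the deposited expected counts with RSEM 1.2.30, which splits reads mapping to more than 1 gene among them by its model. The deposited TPM values are the authors' RSEM estimates divided by gene length and brought to the same total in each library. Tables of the authors' own comparisons, which hold fold changes and p-values, and a normalized table were not used.

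Expected counts were rounded to whole numbers. Counts per library ranged from 2760743 to 9944156, and this depth limits *Krt80* most. The filter filterByExpr (at least 10 counts, and 15 in total) left 13986 of 53558 genes. edgeR 4.0.16 in R 4.3.3 was run with TMM scaling and the quasi-likelihood test in 1 model of all 19 libraries, with no covariate, and adjusted p-values printed as edgeR adjusted p come from it. Intervals are 95% intervals of the fitted log2 fold change. DESeq2 1.42.0 and limma 3.58.1 served as alternatives, beside other scalings, filters, covariates, subsets of libraries and fits that left out 1 library. Pairs of replicates differed by a chi-square of 6.78 to 69.0 per gene, so none was taken for a repeat deposit of 1 library. The procedure was tested on simulated counts. Groups, replicate numbers and sexes come from the sample labels, and nothing says that all libraries of a group are separate animals, so p-values measure the spread between libraries.

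The keratins, the gene lists and the tests were chosen with earlier results of these data known. Named were the 5 keratins, up to 4 genes of a list with the smallest p or a defining marker, and for each keratin the 3 genes with the highest and the 1 with the lowest correlation among genes with an average log2 CPM above 2. *Krt8-ps* and the distance of *Krt23* were added after values were seen. Promoters were found for 3 of the 5 keratins, and coordinates are those of GENCODE M21 on GRCm38. The identity of the tumor-initiating allele is not reported here.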

Additional observations from a re-analysis of the deposited data

Results flagged for a closer look

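Among 30 sets of 4 to 10 libraries (each keratin and each ratio within a group), 3 had a library far from the others by Dixon's test, which flags about 1 in 20 by chance. *Krt19* was highest in sgLkb1 replicate 4, at 6.21 log2 CPM against 5.73 in the next library, a gap of 0.785 of the range of the 5 libraries. This library also had the highest *Krt7*, *Krt8*, *Krt18* and *Krt80* in its group by TPM. *Krt23* was lowest in sgInert replicate 3, at 5.61 log2 CPM against 6.34 in the next, a gap of 0.602 of the range of the 7 libraries. The ratio of type II to type I keratin TPM was highest in sgLkb1 replicate 1, at 0.979 against 0.760 in the next, a gap of 0.740 of the range. The effect of the C/ebp guides on the 5 keratins was also compared between male and female libraries by an interaction term, and edgeR adjusted p was 0.719 or more for each. In sgCebpa/b/d all 3 male libraries are unnumbered and all 4 female libraries are MT-numbered, so there sex and the kind of title cannot be told apart.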

How the results depend on the processing

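Each keratin was tested again under 14 alternatives and in 19 fits without 1 library. *Krt7* in sgCebpa/b/d passed in all of these, and *Krt18* in both contexts passed in all but the females-only fit, where it was at 0.41 in sgCebpa/b/d and 0.49 in sgLkb1. For the calls and values below that changed, the cause was not tested.

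*Krt80* in sgCebpa/b/d lost its call with RSEM effective lengths as offsets (−0.75), with limma on log2(TPM + 1) (−0.54), with no filter on low counts (−0.76), in females (−0.97), among MT-numbered libraries (−0.33), with the title series as a covariate (−0.28), without the libraries that carry no animal number (−0.79), with libraries of 1 animal summed (−0.78) and with only the 2 groups compared (−0.77). Leaving out 1 library gave −0.88 to −0.57, and the call was lost without sgInert replicate 1, 3, 4 or 5, without sgCebpa/b/d replicate 1, 3, 4, 5 or 7 and without sgLkb1 replicate 1, 2 or 3. Against sgLkb1, *Krt80* passed with DESeq2 (−0.79), limma (−0.87), MT-numbered libraries (−0.88), the title series as a covariate (−0.78) and only the 2 groups (−0.80), and ranged from −0.85 to −0.70 without 1 library, passing without sgInert replicate 4 or 6. In sgLkb1 against sgInert, *Krt80* changed sign with sex as a covariate (−0.061), in females (−0.16) and with libraries of 1 animal summed (−0.015), and ranged from −0.093 to 0.21 without 1 library, never past the threshold.

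*Krt7* in sgLkb1 lost its call with effective lengths (0.60), without the libraries that carry no animal number (0.61) and with libraries summed (0.60), and ranged from 0.52 to 0.70 without 1 library. *Krt8* in sgLkb1 passed with DESeq2 (0.53), limma (0.77), females (0.50), MT-numbered libraries (0.75) and the title series as a covariate (0.81), and ranged from 0.44 to 0.64, passing without sgInert replicate 1 or 4. *Krt8* in sgCebpa/b/d passed among MT-numbered libraries (0.65) and ranged from 0.24 to 0.46, passing without sgInert replicate 1. *Krt19* passed among MT-numbered libraries (0.82 in sgCebpa/b/d, 0.84 in sgLkb1) and with the title series as a covariate (0.79 and 0.91), and in sgLkb1 it ranged from 0.39 to 0.65, passing without sgInert replicate 1. *Krt19* in sgCebpa/b/d against sgLkb1 turned to 0.036 in females and ranged from −0.19 to 0.0032. *Tm4sf1* in sgCebpa/b/d changed sign among MT-numbered libraries (−0.36) and without the libraries that carry no animal number (−0.13).

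Calls over all genes moved from 1412 in sgCebpa/b/d to 703 in females, 926 with the title series as a covariate and 881 without the libraries that carry no animal number. For sgLkb1 they moved from 809 to 1258 with sex as a covariate, 525 without the libraries that carry no animal number and 532 with libraries summed, and between the perturbed groups from 833 to 455 and 466 under the last pair of settings.

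The replicate numbers did not pair the libraries, since same-numbered libraries correlated over 0.1 in their deviations in 0 of 7, 0 of 5 and 2 of 5 pairs, with 0, 2 and 2 libraries closest to their own number. With the replicate number as a block (replicate block), *Krt8* in sgCebpa/b/d passed at 0.38 (edgeR adjusted p = 0.0466), *Krt80* lost its call (−0.68) and so did *Krt7* in sgLkb1 (0.55), *Krt80* in sgLkb1 was at −0.021 and *Krt19* between the perturbed groups at 0.015. The depth limits *Krt80*, with 26 counts in its lowest library, more than the other keratins.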
